A study of Mus musculus with 12 samples.

Results

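The clustered replication-dependent histone genes of mouse embryonic stem cells were followed over 4 h of RAF activation. They were taken as every row of the deposited count table whose symbol starts with Hist1, Hist2, Hist3 or Hist4, which gave 67 of 25897 symbols: 6 genes of H1, 18 of H2A, 18 of H2B, 12 of H3 and 13 of H4. The cells were E14tg2a stem cells of the 129SV background carrying a cRAF-ERT2 construct, a RAF kinase joined to an oestrogen receptor domain, which 4-hydroxytamoxifen (4OHT) switches on and which signals to ERK. Each of 3 clones (a, b, c) gave an untreated sample and samples at 1, 2 and 4 h in 250 nM 4OHT, making 12 libraries in 4 groups of 3. All cells, untreated ones included, were kept in serum, LIF and 2 µM Chir99021, a GSK3 inhibitor, and for the 24 h before treatment in serum, LIF and the FGF receptor inhibitor PD173074 at 250 nM. All received 5 mM ethynyl uridine for 15 min before harvest. The samples hold no group given the carrier alone, so 4OHT and activation of the construct cannot be told apart. All clones are of 1 line, and the p-values measure the spread between these clones only.

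Replication-dependent histones package newly made DNA. H2A, H2B, H3 and H4 form the core particle around which DNA is wrapped, and H1 binds the DNA between particles. Their genes lie in clusters, have no introns as a rule and are transcribed mainly in S phase. Their mRNAs are unusual in ending in a conserved stem-loop rather than a poly(A) tail. The stem-loop is bound by the protein SLBP, and the message is cut just after it with the help of the U7 small nuclear RNA. Stem cells cycle quickly and spend much of the cycle in S phase, so they make much histone mRNA. A library primed on poly(A) would lose most of these messages, whereas ribosomal RNA depletion, used here, keeps them in the sample.

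The stem-loop was searched in the GENCODE M21 annotation (GRCm38) to show the feature that sets these mRNAs apart. It was found in 44 of the 67 members, 21 to 58 bases after the stop codon (median 31). Among the 48 members annotated for at least 60 bases past the stop codon, 42 held it. The other 2 were found in shorter annotations, and in the rest of those the loop could lie past the annotated end. The 44 loops came in 6 versions, of which 1 example each is shown with 5 flanking bases on either side. Capitals mark the paired stem, and the coordinates are those of the 16 bases of the stem-loop.
Hist1h2bg, chr13:23571843-23571858, strand +: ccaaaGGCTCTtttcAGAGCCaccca
Hist1h2bk, chr13:22036300-22036315, strand +: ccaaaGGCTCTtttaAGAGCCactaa
Hist2h2ac, chr3:96220418-96220433, strand -: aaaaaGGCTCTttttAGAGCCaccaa
Hist1h4d, chr13:23581950-23581965, strand +: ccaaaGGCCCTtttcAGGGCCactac
Hist1h4i, chr13:22040966-22040981, strand -: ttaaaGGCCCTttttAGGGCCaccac
Hist1h4j, chr13:21735437-21735452, strand +: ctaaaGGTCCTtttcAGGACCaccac
The Hist1h2bg version was the most frequent, in 26 members of H1, H2A, H2B and H3. The Hist1h2bk version was in 6 members of H1, H2B and H3, and that of Hist2h2ac in this gene alone. The other 3 versions, in 7 members for Hist1h4d and 2 members each for Hist1h4i and Hist1h4j, were found in H4 genes alone among the 44.

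Promoter sequence was available from RefSeq (GRCm38.p6) for 62 members in 63 windows of 250 bases before to 50 after the start. Hist1h2bc, Hist1h3a, Hist1h3f, Hist2h2be and Hist2h4 had no entry. To show what the families share and where they differ, the 250 bases before the RefSeq start are printed for 4 genes. Hist1h1a and Hist2h2bb had the highest counts and no change past the threshold, Hist1h2bk had the largest 4 h change of H2B, and Hist1h4d had the most counts of H4. Capitals mark letters that match the CCAAT box, the TATA box (TATAAA), the octamer (ATTTGCAT) and an E2F-type motif (TTTCGCGC). Each was searched on both strands and counted separately, also where motifs overlapped. A match anywhere in the window counted, and it need not act as that element in the gene. In Hist1h2bk the TATAAA match lies on the opposite strand, as TTTATA.
Hist1h1a, chr13:23763418-23763667, strand +: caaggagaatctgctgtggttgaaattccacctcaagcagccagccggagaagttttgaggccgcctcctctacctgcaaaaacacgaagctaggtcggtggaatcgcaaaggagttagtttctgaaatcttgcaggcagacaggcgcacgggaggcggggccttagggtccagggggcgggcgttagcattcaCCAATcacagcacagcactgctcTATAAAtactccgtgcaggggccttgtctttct
Hist2h2bb, chr3:96269450-96269699, strand +: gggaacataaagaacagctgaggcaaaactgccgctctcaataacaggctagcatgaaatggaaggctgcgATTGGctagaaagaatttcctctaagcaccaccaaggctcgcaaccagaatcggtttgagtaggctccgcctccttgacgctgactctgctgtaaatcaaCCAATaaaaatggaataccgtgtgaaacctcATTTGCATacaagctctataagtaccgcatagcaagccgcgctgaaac
Hist1h2bk, chr13:22035571-22035820, strand +: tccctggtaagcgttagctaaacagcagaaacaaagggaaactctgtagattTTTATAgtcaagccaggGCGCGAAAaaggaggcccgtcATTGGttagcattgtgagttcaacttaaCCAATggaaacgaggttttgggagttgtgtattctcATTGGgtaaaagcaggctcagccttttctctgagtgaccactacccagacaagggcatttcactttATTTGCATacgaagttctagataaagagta
Hist1h4d, chr13:23581318-23581567, strand +: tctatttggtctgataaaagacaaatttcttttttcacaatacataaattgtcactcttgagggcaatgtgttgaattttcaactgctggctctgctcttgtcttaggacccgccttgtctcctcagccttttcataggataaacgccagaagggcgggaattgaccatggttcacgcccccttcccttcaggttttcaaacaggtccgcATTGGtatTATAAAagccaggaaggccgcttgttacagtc
CCAAT was in every window of H1 (6), H2A (18), H2B (17) and H3 (10) but in 3 of 12 H4 windows, against 37.4% of all 32851 RefSeq windows. TATAAA was in 35 of 63 windows (55.6%), against 13.6% of all. The octamer was in 7 H2A and 7 H2B windows and in no window of H1, H3 or H4, against 1.74% of all. The E2F-type motif was in 5 H2A and 4 H2B windows and in no other member's window, against 0.323% of all. CCGGAAGT, an ETS-type motif, was in 0 of 63 windows, against 3.89% of all. Windows are not independent: 13 pairs of members lie head to head within 1000 bases, 12 of them an H2A with an H2B gene, so that both windows of a pair can hold the same bases.

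How many members had enough counts was asked first. Libraries held 24213641 to 31435301 counts, and the 67 members together took 0.221% to 0.431% of them. A filter on low counts (edgeR's filterByExpr, minimum count 10) kept 59 members: all 6 of H1, 13 of 18 of H2A, 16 of 18 of H2B, all 12 of H3 and 12 of 13 of H4. In 57 members every library had at least 10 counts, in 45 every library had at least 100, and 56 averaged at least 1 CPM, counts scaled to a common library total. Low but tested were Hist1h2aa (161 counts in all 12 libraries), Hist1h2ba (205) and Hist1h4n (212). Hist1h2aa and Hist1h2ba, like the H1 gene Hist1h1t (433 counts), are known as histones of the testis. Of 7 germ line markers of the tissue where those are made, Tnp1 and Sycp3 had 0 counts over all libraries, Tnp2 and Prm2 1 each, Acrv1 55, Prm1 96 and Ddx4 4336, and their sum was 11.4 to 15.8 CPM per library.

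The 8 members left out were near or at 0. Hist1h2ao, Hist1h2ap, Hist2h2aa1, Hist3h2a, Hist1h2bq and Hist1h4m had 0 counts in all 12 libraries, and Hist2h2aa2 and Hist1h2br had 2 counts each. A count of 0 allows up to 3 counts, or 0.0954 to 0.124 CPM per library, for counting error only. Cdt1, Gins2, Tk1, Asf1a and Cstf2t, genes that dividing cells use, were also at 0 in all 12 libraries, so a 0 in this table need not mean that little RNA was present. Most of the 8 members left out are near-identical copies. The share of runs of 50 bases that no other annotated transcript holds was 6.5% in Hist1h2ao, 6.93% in Hist1h2ap, 3.72% in Hist2h2aa1, 0% in Hist2h2aa2, 2.68% in Hist1h2bq, 11.3% in Hist1h2br and 10.2% in Hist1h4m. Hist3h2a is different, with 98% of its runs found nowhere else, but it overlaps Trim17 on the same strand and Gm44313 on the other. How reads that map to several genes or to overlapping genes were counted is not given in the sources used here. The counts of copies can therefore be split or lost, and values of single members with little sequence of their own are uncertain.

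**Figure D1:**
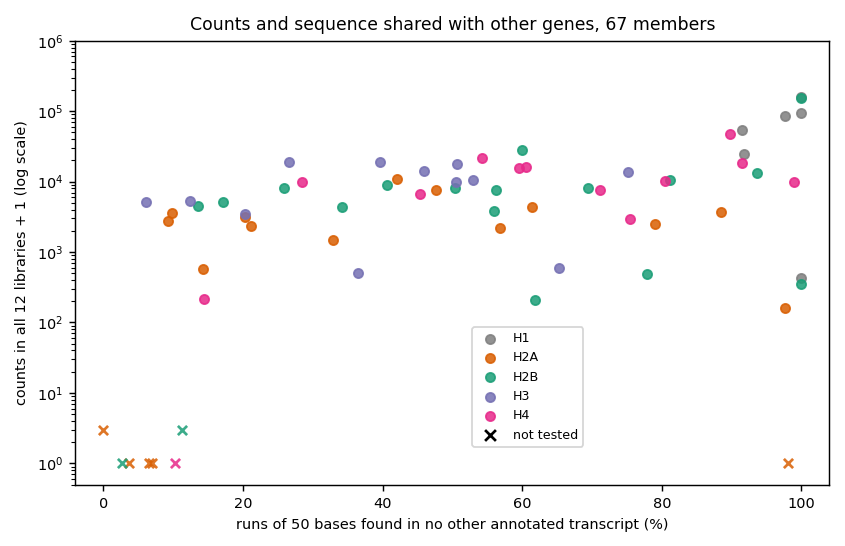
Counts of each of the 67 members summed over 12 libraries (vertical axis, log scale, 1 added) against the percentage of its runs of 50 bases found in no other annotated transcript (horizontal axis). Points are tested members coloured by family and crosses the 8 untested ones: 7 of the crosses lie at or below 11.3% and 1, Hist3h2a, at 98%.

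H1 genes were the most distinct and H2A and H3 genes the least. The median share of such runs over tested members was 98.9% in H1, 42% in H2A, 58.1% in H2B, 42.8% in H3 and 65.8% in H4. H1 held 41% of all members' counts, H2B 26.2%, H4 16.5%, H3 11.8% and H2A 4.48%. Single genes made up much of this: Hist2h2bb gave 57.7% of H2B counts, Hist1h1a 37.8% of H1, Hist1h4d 28.5% of H4, Hist1h2ab 23.7% of H2A and Hist1h3b 16% of H3. Per kilobase of annotated length, the median level of tested members was 73.3 CPM in H1, 44.8 in H4, 41.5 in H3, 32.6 in H2B and 16.9 in H2A. The highest levels per kilobase were those of Hist2h2bb (1217 CPM per kb), Hist1h1a (643.5), Hist1h1b (383), Hist1h2bb (168.6) and Hist1h4h (139.6). The lowest were those of Hist2h2be (0.4), Hist2h3c1 (0.981) and Hist1h2aa (1.27). These levels depend on the annotation, since some members, such as Hist2h2bb with 381 bases, are annotated for the coding part alone and Hist1h1d for 7425 bases. Hist2h2bb also overlaps Gm42743 on its own strand and Gm20628 on the other, and its counts cannot be separated from theirs.

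One library stood apart before any comparison. In the untreated library of clone a, all 53 tested core histone members (H2A, H2B, H3 and H4) lay below their group mean, with a median deviation of −0.52 on the log2 scale, whereas the untreated libraries of clones b and c had medians of 0.25 and 0.26. At 1 h, clone a was the high library (3 of 53 below the group mean), and at 2 h it was low (46 of 53). At 4 h the median deviations of the clones lay between −0.08 and 0.05. The family sums at 4 h and the edgeR counts of members called against untreated are given with and without the untreated clone a library. So are the counts by family at 4 h. Other counts, those of other gene lists among them, are given with it unless stated. The H2B sum without Hist2h2bb and the levels and changes of single genes are given with it too.

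Summed core histone RNA was higher at 4 h in every clone, whereas the H1 groups overlapped. Summed over H4, the TMM-scaled level in clones a, b and c was 169.5, 327.4 and 361.6 CPM without treatment and 797.3, 846.8 and 761.7 at 4 h. The groups did not overlap, and the ratio of 4 h to untreated was 4.7, 2.59 and 2.11 in the 3 clones. H3 went from 151.2, 275.4 and 287.3 CPM to 559.3, 540.2 and 507.6, again without overlap. H2A went from 65.1, 96.5 and 107.8 CPM to 200.3, 214.2 and 202.4, without overlap. H2B went from 617.5, 743.9 and 723.7 CPM to 995, 975.5 and 909.8, without overlap and by a smaller ratio (1.38 of the means). Without Hist2h2bb the H2B mean went from 232.9 to 506.4 CPM, a ratio of 2.17. H1 was 1056, 1431 and 1249 CPM untreated and 1601, 1294 and 1193 at 4 h, so the groups overlapped. It was higher in clone a (ratio 1.52) and lower in clones b (0.904) and c (0.955). Without the untreated clone a library the 4 h ratios of means were 2.33 for H4, 1.9 for H3, 2.01 for H2A, 1.31 for H2B and 1.02 for H1. These are sums over the members and carry no test. In these bulk libraries a larger share of cells that express a gene and more RNA per cell cannot be told apart.

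**Figure D2:**
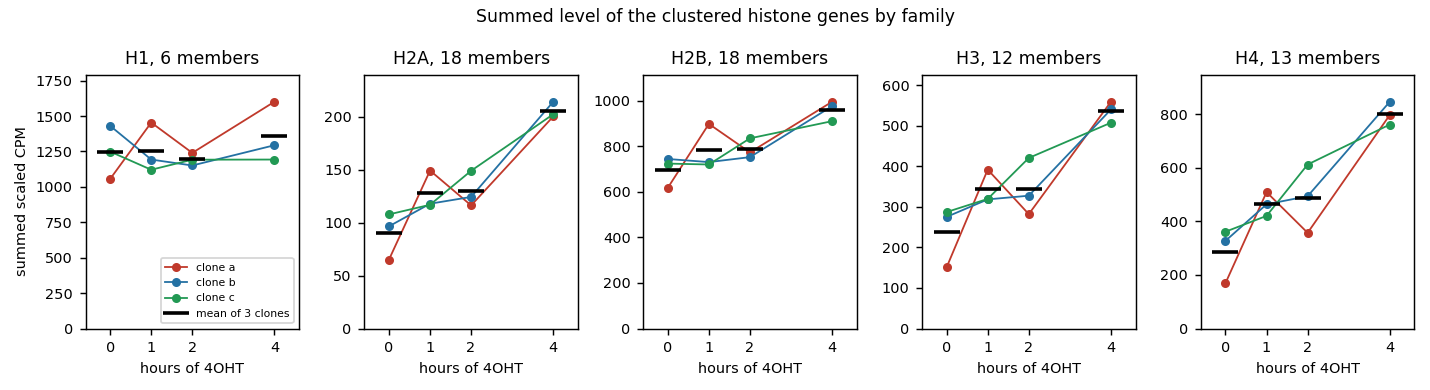
Summed TMM-scaled CPM of each family (vertical axis, from 0) against hours of 4OHT, with 1 line per clone and a bar at the mean of 3 clones. For H2A, H2B, H3 and H4 all 3 clones at 4 h lie above all 3 untreated values, whereas H1 overlaps, and clone a starts lowest in every panel.

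Each member was then tested against untreated cells with edgeR's quasi-likelihood test over all 14185 genes that passed the filter, with adjusted p under 0.05 as the threshold. At 4 h, 47 of 59 members were higher and 0 were lower, while 18% of all genes tested were higher and 15.1% lower. Of the 47, 36 were at least 2-fold higher, and 26 were without the untreated clone a library. The median change over the 59 members was 1.16 on the log2 scale, against −0.02 over all genes tested. With the clone as a replicate block the same 47 members were called, where 26.2% of all genes were higher. Without the untreated clone a library 45 were higher, where 14.1% of all genes were higher and 11.2% lower, and the members' median was 0.94. All 3 clones at 4 h lay above all 3 untreated libraries in 47 members, against 22.8% of all genes tested. Without the untreated clone a library the number was the same, against 26.9%. Leaving out an untreated library cannot lower such a count, so the repeat is no check on that library. Of the members given below with a value in every library, 21 were called at 4 h, and all 21 passed without the untreated clone a library, with changes of 0.46 to 1.56 that were 0.03 to 0.30 smaller. In a fit with the block and without that library, chosen after the data were seen, 47 members were higher and 3 lower at 4 h. In that fit 56.1% of all genes were called in either direction. Clone a has no untreated library there, so the untreated level is that of clones b and c alone, at each time.

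By family, the higher members at 4 h were 11 of 12 tested in H4 (median change 1.47), 12 of 13 in H2A (1.17), 12 of 16 in H2B (1.18), 10 of 12 in H3 (1.06) and 2 of 6 in H1 (0.13). All 11 called H4 members were at least 2-fold higher, compared with 8 in H2A, 9 in H2B, 8 in H3 and 0 in H1. Without the untreated clone a library the higher members were 11 in H4, 10 in H2A, 12 in H2B, 10 in H3 and 2 in H1, and those at least 2-fold higher 10, 6, 7, 3 and 0. In that fit 14.1% of all genes were higher, against 18% with the library. Differences between families were not tested, since genes of a family share sequence and are not replicates. Among the 20 tested members with at least 75% of runs of their own, a limit set after the values were seen, 12 were higher: 5 of 5 in H4, 1 of 1 in H3, 2 of 3 in H2A, 2 of 5 in H2B and 2 of 6 in H1.

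**Figure D3:**
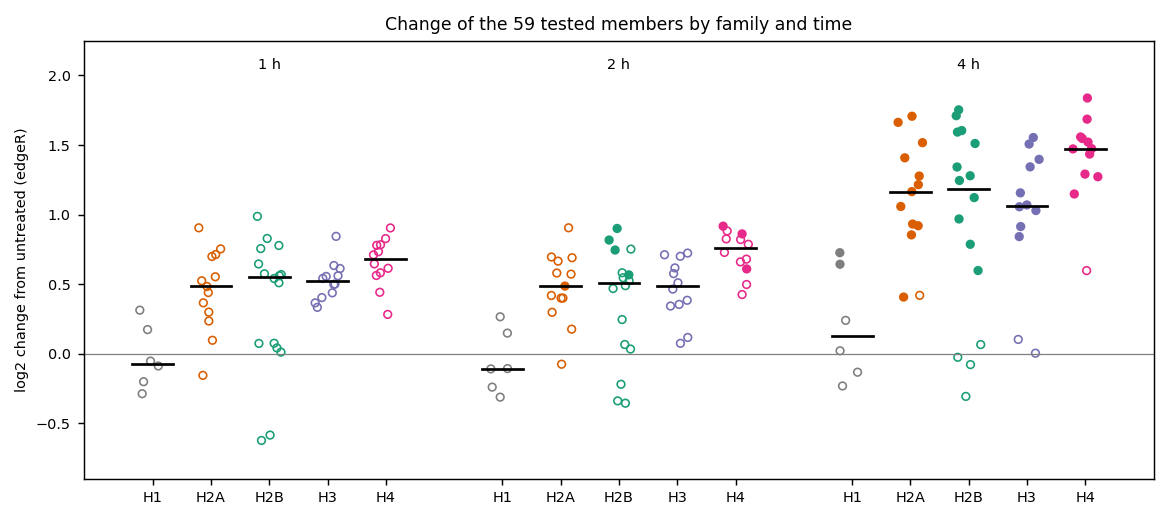
Log2 change from untreated (edgeR, vertical axis) of the 59 tested members by family at 1, 2 and 4 h; filled points pass adjusted p under 0.05, open points do not, and bars are family medians. At 4 h most core histone points are filled and above 0, with a median of 1.47 in H4 and 0.13 in H1.

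H1 linker histones divided. Hist1h1d was 157.6, 256.7 and 233.4 CPM untreated, 289.4, 224.7 and 215.8 at 1 h, 228.2, 232.7 and 256.4 at 2 h and 371.7, 341.3 and 297.9 at 4 h, the libraries given in the order of clones a, b and c here and below. Its 4 h values lay above all earlier ones, and the change from untreated was 0.64 ± 0.17 (log2, SE; edgeR adjusted p = 0.0132). Hist1h1c was also higher at 4 h (0.73 ± 0.20, edgeR adjusted p = 0.0175). Hist1h1a was 447.2, 553.2 and 504.1 CPM untreated, 546, 448.7 and 454.5 at 1 h, 494.1, 438.5 and 463.7 at 2 h and 536.1, 414.7 and 420.5 at 4 h. It went up from untreated to 4 h in clone a and down in clones b and c, and the difference did not pass (−0.13 ± 0.12, edgeR adjusted p = 0.405). Hist1h1b was 289.8, 352.9 and 296.3 CPM untreated, 353.5, 283.9 and 245.5 at 1 h, 308.2, 255.4 and 230.9 at 2 h and 330, 242 and 227.2 at 4 h. It split by clone in the same way (−0.23 ± 0.17, edgeR adjusted p = 0.31). With all clone a libraries left out, both genes were lower at 2 h (−0.23 ± 0.07, edgeR adjusted p = 0.0459, and −0.42 ± 0.11, edgeR adjusted p = 0.0389), where 10.1% of all genes were lower. At 4 h Hist1h1a was lower by −0.34 ± 0.07 (edgeR adjusted p = 0.00794) and Hist1h1b by −0.47 ± 0.11 (edgeR adjusted p = 0.0176), where 16.8% of all genes were lower. This fit drops the clone in which both genes went up, so it describes clones b and c only and cannot test a fall across clones. Hist1h1e, whose annotation overlaps Hist1h2be and Gm11398, differed by 0.02 ± 0.19 and the testis gene Hist1h1t by 0.24 ± 0.39, neither past the threshold.

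H2A, which pairs with H2B in the particle, rose in 12 of 13 tested members at 4 h. Hist1h2ab was 19.4, 23.8 and 26.7 CPM untreated, 37.6, 30.5 and 29.7 at 1 h, 32.8, 34.1 and 31 at 2 h and 39, 47 and 40.4 at 4 h. All treated values lay above the untreated ones, with a 4 h change of 0.85 ± 0.13, edgeR adjusted p = 0.000921. Hist1h2ak was 7.68, 14.4 and 17.2 CPM untreated, 21.1, 18.5 and 18 at 1 h, 16.9, 17.4 and 28 at 2 h and 38.9, 43 and 42.6 at 4 h. Every 4 h value was above every earlier one (1.66 ± 0.26, edgeR adjusted p = 0.00106). Hist2h2ac, of the chromosome 3 cluster, was 5.49, 9.28 and 11 CPM untreated, 14.5, 10.3 and 12.2 at 1 h, 10.4, 11.7 and 16.4 at 2 h and 22, 19.4 and 18.3 at 4 h. It too was highest at 4 h in each clone (1.22 ± 0.25, edgeR adjusted p = 0.00386).

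Of the remaining H2A genes with small p-values, Hist1h2ac was 6.08, 7.76 and 8.99 CPM untreated, 13.2, 8.7 and 9.04 at 1 h, 10.3, 8.93 and 10.9 at 2 h and 16.7, 16.6 and 17.9 at 4 h. Hist1h2ae was 4.13, 4.86 and 5.36 CPM untreated, 6.82, 5.55 and 4.52 at 1 h, 5.55, 5.88 and 7.48 at 2 h and 9.87, 10.3 and 9.68 at 4 h. Hist1h2af was 3.67, 6.93 and 6.47 CPM untreated, 10.5, 9.16 and 8.21 at 1 h, 7.28, 8.28 and 9.72 at 2 h and 14, 16.8 and 14.4 at 4 h. In these 3 genes each 4 h value lay above all earlier ones, and the 4 h changes were 1.17 ± 0.18, 1.06 ± 0.18 and 1.41 ± 0.22. The largest change of the family was that of Hist1h2ai (1.71 ± 0.34, edgeR adjusted p = 0.00359), of whose runs of 50 bases 9.88% are its own. The smallest one called was that of Hist2h2ab (0.41 ± 0.14, edgeR adjusted p = 0.0402). All 18 H2A members overlap at least 1 predicted gene on the opposite strand, and Hist1h2ac also Gm24991 on its own, so the counts of none can be separated from those genes. The testis gene Hist1h2aa was the 1 tested H2A member not called (0.42 ± 0.52).

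H2B ranged most widely. Hist2h2bb, which held most of its counts, was 436.6, 492.1 and 457.8 CPM untreated, 525.6, 440.5 and 430.6 at 1 h, 497.3, 458.6 and 462.5 at 2 h and 478, 456.6 and 426.7 at 4 h. The groups overlapped at every time, and the 4 h difference was −0.03 ± 0.08 (edgeR adjusted p = 0.84). Hist1h2bb was 72.1, 74 and 78 CPM untreated, 90.8, 66.5 and 73.2 at 1 h, 75.9, 70.2 and 88.3 at 2 h and 117.4, 108.7 and 112.9 at 4 h. Its groups overlapped at 1 and 2 h, and all clones were higher at 4 h (0.60 ± 0.11, edgeR adjusted p = 0.0028). Hist1h2be, which overlaps Hist1h1e, was 14.7, 29.5 and 32.1 CPM untreated, 45.9, 35.8 and 31.6 at 1 h, 30.7, 36.5 and 46.7 at 2 h and 66.3, 62.3 and 56.2 at 4 h. All its 4 h values lay above the earlier ones (1.28 ± 0.26, edgeR adjusted p = 0.00379).

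The H2B members with the smallest p-values over all times had fewer counts. Hist1h2bk was 8.21, 11.7 and 16.4 CPM untreated, 30.5, 21.4 and 20.1 at 1 h, 18, 20.2 and 29.6 at 2 h and 40.4, 40.6 and 41.5 at 4 h. All its treated values lay above the untreated ones, and its 4 h change was the largest of H2B (1.75 ± 0.26, edgeR adjusted p = 0.000719). Hist1h2bp was 4.69, 6.89 and 6.26 CPM untreated, 11.9, 10.4 and 9.27 at 1 h, 8.77, 10.5 and 12.1 at 2 h and 19.5, 22 and 16.8 at 4 h. It had the smallest 4 h p of all members (1.71 ± 0.18, edgeR adjusted p = 0.000163). Hist1h2bc was 12, 15.8 and 15.9 CPM untreated, 22.4, 20.5 and 21.9 at 1 h, 16.3, 20.1 and 28.2 at 2 h and 40.1, 43.6 and 40.7 at 4 h, a 4 h change of 1.51 ± 0.18. Hist1h2bg was 9.72, 13.8 and 17.2 CPM untreated, 29, 19.5 and 21.4 at 1 h, 19.7, 20.7 and 27.9 at 2 h and 40.1, 42.7 and 40.2 at 4 h, a 4 h change of 1.59 ± 0.21. Hist1h2bj was 12.2, 19.8 and 18.9 CPM untreated, 31.1, 24.7 and 23.6 at 1 h, 20.2, 23.6 and 29.2 at 2 h and 42.5, 45.6 and 40.5 at 4 h, a 4 h change of 1.34 ± 0.19. In Hist1h2bp, Hist1h2bc, Hist1h2bg and Hist1h2bj alike, every treated value exceeded every untreated one and every 4 h value exceeded all others. Those not called were Hist2h2bb, Hist2h2be (0.06 ± 0.33), Hist3h2ba (−0.08 ± 0.42) and Hist1h2ba. The last, a testis gene, was 0.74, 0.876 and 0.692 CPM untreated and 0.691, 0.611 and 0.553 at 4 h, the 1 member whose 4 h values lay below all untreated ones, and its difference did not pass (−0.31 ± 0.33, edgeR adjusted p = 0.495).

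H3, the histone whose tail carries many regulatory marks, rose in 10 of 12 members. Hist1h3b was 28.6, 48.7 and 50.2 CPM untreated, 68.8, 50.4 and 53.4 at 1 h, 48.2, 49.5 and 63.8 at 2 h and 80.9, 81.6 and 77.6 at 4 h. Its 4 h values lay above all others, and its 2 h values overlapped the untreated ones (0.91 ± 0.20, edgeR adjusted p = 0.00538). Hist1h3e was 18.5, 38.7 and 41.9 CPM untreated, 59.1, 47.5 and 47 at 1 h, 43.8, 48.1 and 70.1 at 2 h and 96.8, 94.5 and 90 at 4 h. All treated values lay above the untreated ones (1.51 ± 0.26, edgeR adjusted p = 0.00183). Hist1h3f was 19, 36.9 and 39.8 CPM untreated, 55.4, 45.8 and 44.9 at 1 h, 40.2, 51 and 64 at 2 h and 83.9, 87.9 and 79.8 at 4 h, with the same order of groups (1.40 ± 0.24, edgeR adjusted p = 0.00169). Hist1h3c had the largest H3 change (1.55 ± 0.26, edgeR adjusted p = 0.0013). Hist2h3b, which overlaps Gm20628 on the opposite strand, had a wide error (1.34 ± 0.41, edgeR adjusted p = 0.0275) and was no longer called without the 4 h library of clone a or that of clone c. Hist2h3c1 (0.00 ± 0.34) and Hist2h3c2 (0.10 ± 0.41), 2 low copies of the chromosome 3 cluster, did not pass.

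H4, the partner of H3, rose in 11 of 12 tested members. Hist1h4d, whose promoter and stem-loop are printed above, was 46.7, 93 and 101.5 CPM untreated, 139, 135.5 and 120.1 at 1 h, 97, 136.8 and 182.1 at 2 h and 220.9, 244.6 and 226.5 at 4 h. Clone a started lowest, and all 4 h values exceeded all others (1.52 ± 0.27, edgeR adjusted p = 0.0018). Hist1h4h was 19.4, 40.1 and 47.3 CPM untreated, 62.9, 60.3 and 54 at 1 h, 44.3, 64.4 and 80.2 at 2 h and 102.9, 114.2 and 97 at 4 h. Its 4 h change was alike in size (1.56 ± 0.28, edgeR adjusted p = 0.00214). Hist4h4, which lies outside the main cluster, was 22.2, 35.2 and 42.7 CPM untreated, 61.5, 45 and 46.5 at 1 h, 41.3, 51.3 and 67.5 at 2 h and 95.7, 90.4 and 84.3 at 4 h. It rose by 1.44 ± 0.23, edgeR adjusted p = 0.00117. Hist1h4i was 11, 16.8 and 16.9 CPM untreated, 23.2, 20.2 and 17.3 at 1 h, 18.8, 23.4 and 26 at 2 h and 37, 39.8 and 31.1 at 4 h, and all treated values lay above the untreated ones (1.27 ± 0.19, edgeR adjusted p = 0.00073). The largest 4 h change of all members was that of Hist1h4j (1.84 ± 0.34, edgeR adjusted p = 0.00261). Hist1h4n, with few counts, was the member not called (0.60 ± 0.40).

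**Figure D4:**
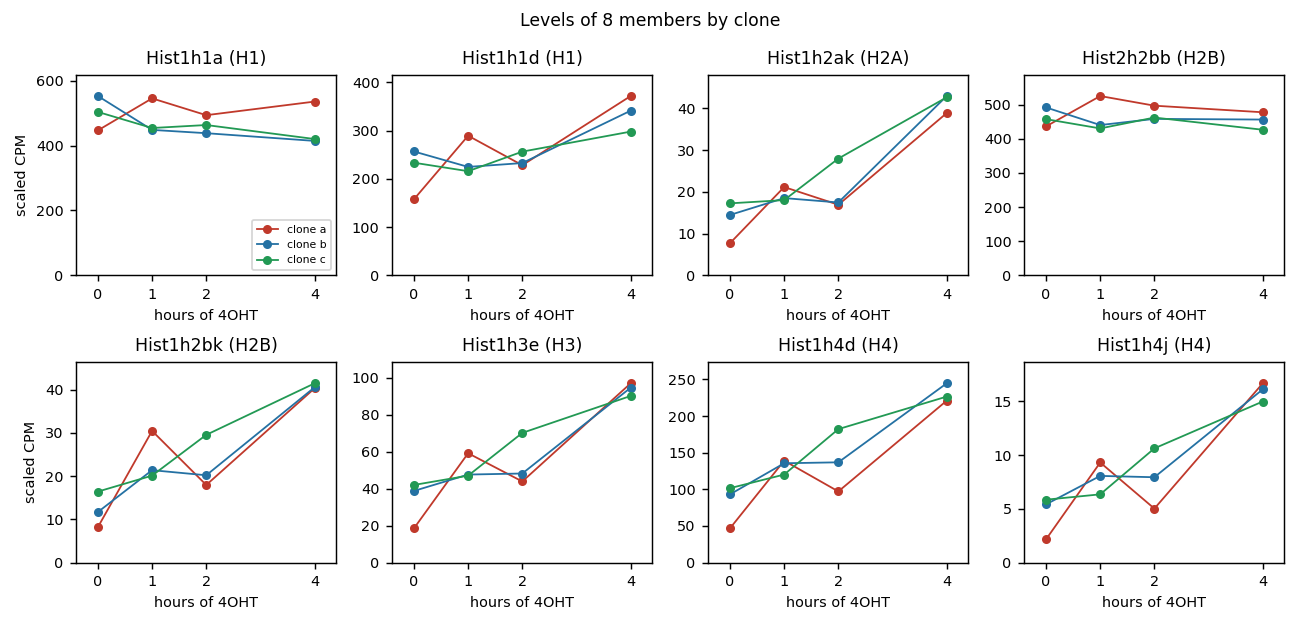
TMM-scaled CPM (vertical axis) of 8 members against hours of 4OHT, 1 line per clone. Hist1h1a and Hist2h2bb overlap at all times, while Hist1h2ak, Hist1h2bk, Hist1h3e, Hist1h4d and Hist1h4j have all 4 h values above the untreated ones.

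The time course was less certain before 4 h. At 1 h, 0 of 59 members passed with edgeR, where 0.0775% of all genes tested were higher. At an unadjusted p under 0.05 there were 34, against 11.5% of all genes, and DESeq2 called 3, against 0.649%, in either direction. The median change was 0.54, and 31 members had all 3 clones above all untreated libraries, against 10.9% of all genes (31 and 14.8% without untreated clone a). Leaving out that library cannot lower this count. With the clone as a replicate block 11 were higher, against 5.41% of all genes, and their block changes were as follows. In H2A they were Hist1h2ab (0.49), Hist1h2af (0.74) and Hist1h2ah (0.79). In H2B they were Hist1h2bc (0.58), Hist1h2bg (0.80), Hist1h2bk (1.02) and Hist1h2bp (0.84). In H3 they were Hist1h3c (0.89). In H4 they were Hist1h4a (0.84), Hist1h4f (0.97) and Hist2h4 (0.82). Without the untreated clone a library 0 members were called, as were 0% of all genes, and the members' median was 0.30. With the block and without that library 2 were higher and 3 lower, where 11.4% of all genes were called in either direction.

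At 2 h, 8 members were higher, where 9.56% of all genes tested were: Hist1h2ab, Hist1h2bc, Hist1h2bg, Hist1h2bk, Hist1h2bp, Hist1h4a, Hist1h4i and Hist2h4. The largest of these changes was that of Hist1h4a (0.92 ± 0.26, edgeR adjusted p = 0.0385) and the smallest p that of Hist1h2bp (0.82 ± 0.18, edgeR adjusted p = 0.017). In 19 members all clones lay above all untreated libraries, against 19.1% of all genes (19 and 23.8% without untreated clone a). Here too the count cannot fall when an untreated library is left out. Without the untreated clone a library 0 of the 8 were called, with a median over all members of 0.30 in place of 0.51. In that fit 4.46% of all genes were higher and 2.83% lower. The count was also 0 when 2 h clone b or 2 h clone c was left out, 1 without untreated clone b, 22 without 2 h clone a, and 2 to 4 with each 1 h library, or 4 h clone c, left out in turn. With the replicate block 28 were higher, against 20.6% of all genes, and 20 of them were called with the block alone. With the block and without untreated clone a 13 were higher and 4 lower, where 47.1% of all genes were called in either direction. Those called with the block alone are given with their block changes. In H2A they were Hist1h2ad (0.70), Hist1h2af (0.59), Hist1h2ah (0.70), Hist1h2ai (0.93) and Hist1h2ak (0.68). In H2B they were Hist1h2bh (0.48), Hist1h2bj (0.53), Hist1h2bl (0.77) and Hist1h2bm (0.55). In H3 they were Hist1h3a (0.62), Hist1h3c (0.73), Hist1h3e (0.72) and Hist1h3f (0.71). In H4 they were Hist1h4b (0.51), Hist1h4c (0.68), Hist1h4d (0.80), Hist1h4f (0.92), Hist1h4h (0.84), Hist1h4k (0.74) and Hist4h4 (0.68).

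The steps between treated times were tested next. Between 1 and 2 h, 0 of 59 members differed with edgeR, where 0.0564% of all genes were higher. At an unadjusted p under 0.05 there were 0, against 16.2% of all genes, and DESeq2 called 0, against 2.79%, in either direction. Between 2 and 4 h, 7 were higher, where 3.27% of all genes were: Hist1h2ac, Hist1h2af, Hist1h2bb, Hist1h2bc, Hist1h2bg, Hist1h2bj and Hist1h2bp. The median change in that step was 0.34 in H1, 0.64 in H2A, 0.64 in H2B, 0.61 in H3 and 0.70 in H4. With the replicate block 34 were higher, against 12% of all genes, of which 27 were called with the block alone. In H2A they were Hist1h2ae (0.66), Hist1h2ah (0.85), Hist1h2ak (1.03) and Hist1h2an (0.62). In H2B they were Hist1h2bf (0.78), Hist1h2bh (0.50), Hist1h2bk (0.88), Hist1h2bl (0.87), Hist1h2bm (0.58) and Hist1h2bn (0.55). In H3 they were Hist1h3b (0.58), Hist1h3c (0.87), Hist1h3d (0.49), Hist1h3e (0.82), Hist1h3f (0.72), Hist1h3g (0.59) and Hist1h3h (0.65). In H4 they were Hist1h4b (0.66), Hist1h4c (0.66), Hist1h4d (0.77), Hist1h4f (0.83), Hist1h4h (0.77), Hist1h4i (0.67), Hist1h4j (1.06), Hist1h4k (0.84), Hist2h4 (0.65) and Hist4h4 (0.78). Without the untreated clone a library, which lies in neither group, 28 were higher in that step, against 3.13% of all genes. With the block too 47 were called, against 29.6% of all genes in either direction. The count was 0 without the 2 h or the 4 h library of clone b, 1 without 2 h clone a or 4 h clone c, 3 without 2 h clone c and 4 without untreated clone b or 1 h clone c. Over all 3 treated times together 43 members passed the F test, where 27.4% of all genes did. That count fell far when clone b or clone c was left out, as given in the last section.

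**Figure D5:**
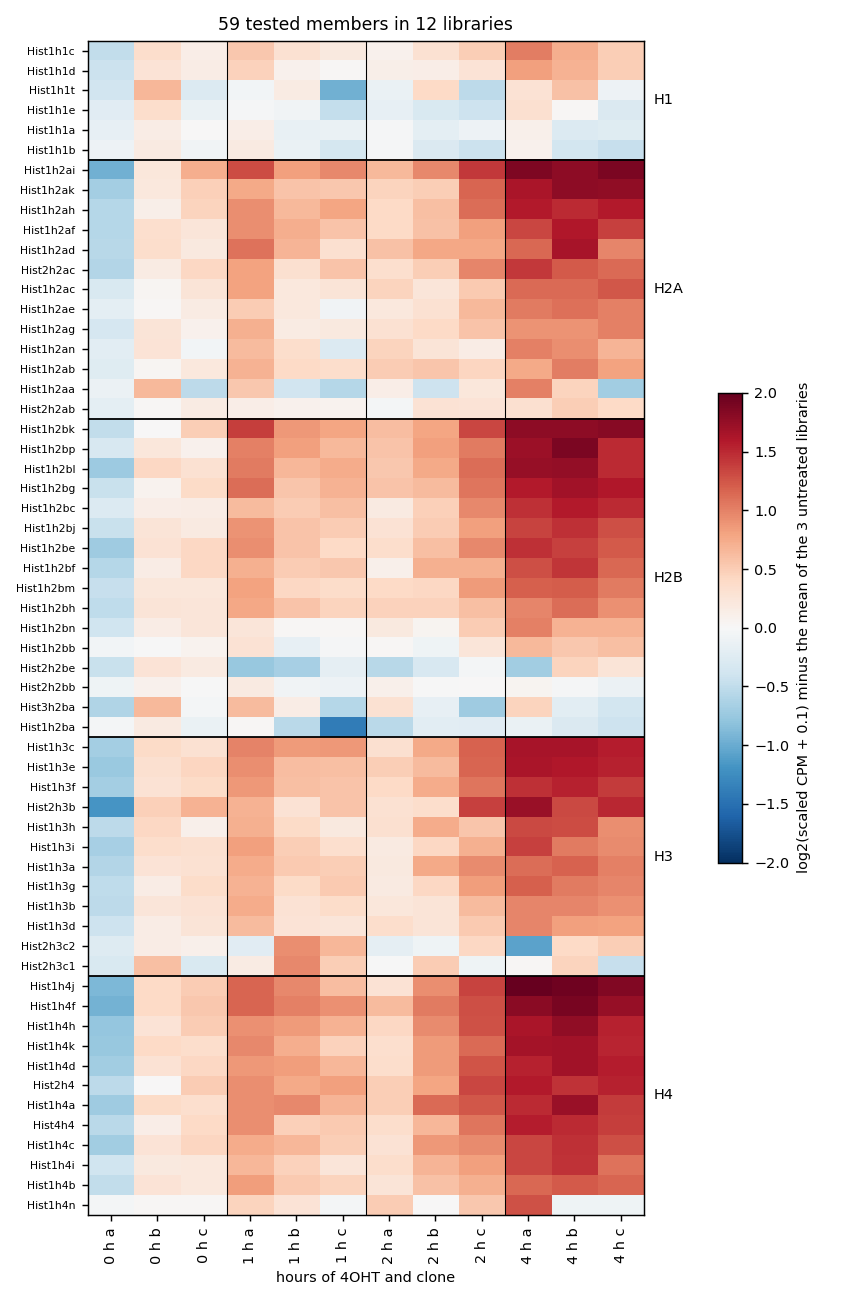
Log2 of scaled CPM (0.1 added) of the 59 tested members (rows, by family) in 12 libraries (columns, by time and clone), minus the mean of the untreated libraries. The untreated clone a column is low in core histones, the 4 h columns are high in most of them, and the H1 rows differ less.

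Changes were also taken within each clone, with no test. The median change over the 59 members was 1.27, 0.265 and 0.116 at 1 h in clones a, b and c, 0.784, 0.273 and 0.533 at 2 h and 1.71, 0.979 and 0.809 at 4 h, on the log2 scale. Clone a was largest at each time, and its untreated library was the low one. At 4 h the H4 median was 2.16, 1.35 and 1.03 and the H1 median 0.611, −0.20 and 0.0149. Other genes of like structure were set beside the members. Of 293 other tested 1-exon protein-coding genes 28.7% were higher at 4 h (median 0.19), and of 300 other genes under 1000 bases 17.3% were (median 0.04). Scaling by total counts in place of TMM moved the median of all genes by −0.11 at 4 h and left 46 members called.

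Head-to-head genes were set side by side, since the promoter windows of most pairs can share bases. In 11 of 13 pairs both genes were tested, with gaps of 175 to 659 bases between starts over all 13. Hist1h2ah and Hist1h2bk changed by 1.52 ± 0.25 and 1.75 ± 0.26 at 4 h, and Hist1h2bl and Hist1h2ai by 1.60 ± 0.26 and 1.71 ± 0.34. Both genes were higher in 9 of the 11. In Hist2h2ac and Hist2h2be the first was higher (1.22 ± 0.25) and the second did not pass (0.06 ± 0.33). In the testis pair Hist1h2ba and Hist1h2aa neither passed. The difference within a pair was not tested.

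The shares of all genes tested that were called, 9.56% higher and 6.64% lower at 2 h and 18% and 15.1% at 4 h, stand beside the lists that follow. Of 27 tested genes of histone mRNA processing, 0 passed at 1 h, 4 were higher and 1 lower at 2 h, and 7 were higher and 4 lower at 4 h (median 0.09, against −0.02 over all genes), the 4 h counts being near those shares. At 4 h Srrt, a partner of the cap-binding complex, changed by 0.73 ± 0.08, edgeR adjusted p = 0.000203 and Snrpb, a core protein of small nuclear ribonucleoproteins, by 0.67 ± 0.09, edgeR adjusted p = 0.000451. Dcp2, a decapping enzyme, changed by −0.50 ± 0.07, edgeR adjusted p = 0.000793 and Xrn1, a 5′ to 3′ exonuclease, by −0.46 ± 0.08, edgeR adjusted p = 0.00245. The stem-loop binding protein Slbp, named here after its value was seen, did not pass at 4 h (−0.06 ± 0.14, edgeR adjusted p = 0.756). At 2 h it was 0.40 ± 0.14, edgeR adjusted p = 0.0676, and passed with the replicate block (adjusted p = 0.00436). Of 10 tested factors of histone promoters (median at 4 h −0.04) 1 was higher at 4 h, Nfya of the CCAAT-binding complex (0.33 ± 0.10, edgeR adjusted p = 0.0286), and 1 lower, E2f1 (−0.68 ± 0.10, edgeR adjusted p = 0.000877). Yy1 passed at 2 h, and not at 1 or 4 h (2 h value 0.27 ± 0.07, edgeR adjusted p = 0.0279).

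Most histone genes outside the clusters make polyadenylated mRNA and are not tied to S phase. Of 11 tested, 0 passed at 1 h, 1 was higher at 2 h and 2 at 4 h (median at 4 h 0.17), near the shares of all genes. With the replicate block 5 were higher and 1 lower at 4 h, where 26.2% of all genes were higher and 25.7% lower. Those called without the block were Cenpa, the centromeric H3, at 2 h (0.38 ± 0.10, edgeR adjusted p = 0.0276), and H1fx (1.45 ± 0.43, edgeR adjusted p = 0.025) and H2afj (0.61 ± 0.20, edgeR adjusted p = 0.0326) at 4 h. H1fx was low, with 462 counts over all libraries. Its untreated values were 0.185, 1.075 and 0.865 CPM in clones a, b and c, the lowest in the library that stood apart. H3f3b, which makes replication-independent H3, did not pass at 4 h (0.43 ± 0.18, edgeR adjusted p = 0.0925) but did with the block (adjusted p = 0.000345), at 2 h too (adjusted p = 0.00372). Of 21 tested histone chaperones 4 were higher at 2 h and 4 at 4 h (median at 4 h 0.03; 18% of all genes were higher), Supt6 (0.51 ± 0.08, edgeR adjusted p = 0.000977) and Atrx (0.66 ± 0.13, edgeR adjusted p = 0.00366) among the latter. Of 37 tested genes of S phase and DNA replication 14 were higher and 0 lower at 2 h, and 7 were higher and 5 lower at 4 h (median 0.01), the 4 h counts being near the shares of all genes. Rpa2, of the single-strand DNA binding complex, was higher at both (0.46 ± 0.06 and 0.26 ± 0.06), and Ccne1, the cyclin of S phase entry, at 4 h changed by 0.33 ± 0.05, edgeR adjusted p = 0.000941. The 5 lower at 4 h were E2f1 (−0.68 ± 0.10), Pola2 (−0.41 ± 0.10), Pola1 (−0.33 ± 0.11), Gmnn (−0.22 ± 0.07) and Gins4 (−0.19 ± 0.07). The share of cells in S phase was not measured in these files.

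The treatment and the cells were checked by genes that are no members. Egr1, Fos, Dusp6 and Spry4, targets of ERK signalling, were higher at each time (Dusp6 at 4 h 2.65 ± 0.17, edgeR adjusted p = 1.72e-05). The 8 stem cell markers summed to 4287 to 5496 CPM in all libraries, and at 4 h 2 were higher and 2 lower. The higher were Utf1 (1.60 ± 0.23) and Pou5f1 (0.60 ± 0.10) and the lower Nanog (−1.31 ± 0.13) and Tdgf1 (−0.37 ± 0.09). The 8 feeder fibroblast markers summed to 164.3 to 291.3 CPM untreated and 286.9 to 563.7 at 4 h, and of 3 tested Thy1 and Col1a1 were higher. Vim, most of that sum, passed with the replicate block alone (0.91 ± 0.34, edgeR adjusted p = 0.0604 without it and 9.81e-06 with it), and Col1a2, Col3a1, Twist2, Lum and Dcn had 4 to 24 counts each over all 12 libraries. The 6 primitive endoderm markers summed to 416.9 to 596 CPM untreated and 323.6 to 480.4 at 4 h, with 0 called by edgeR at any time and 2 lower at 4 h under the replicate block, where 25.7% of all genes were lower. Lama1 was most of that sum, at 411.5 to 586.8 CPM untreated and 319.5 to 471 at 4 h. Gata4, Gata6, Sox17, Foxa2 and Dab2 had 101 to 778 counts each over all 12 libraries. The part of any of these marker genes in the histone result was not tested.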

How the data were processed

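RNA of 12 libraries (3 clones at 4 times) was depleted of ribosomal RNA and sequenced, per the labels' protocols. The authors deposited 1 table of raw counts per gene symbol. STAR, featureCounts, DESeq and mm10 are named, per the submitters' processing notes. Versions, annotation, strand setting and the treatment of reads that map to several genes were not given in the sources used here, and copies and overlapping genes are uncertain for that reason. The treatment protocol names 0 h and 2 h, while titles and design give all 4 times. Members, lists and alternatives were chosen with earlier results of these data known.

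Libraries held 24213641 to 31435301 counts, so 3 counts, the limit that a count of 0 allows, are 0.0954 to 0.124 CPM. That limit covers counting error only. Genes were kept by filterByExpr (minimum count 10, minimum total 15), which left 14185. Counts were scaled by TMM and tested with edgeR 4.0.16 (quasi-likelihood, all 12 libraries, 1 term per group, 2-sided, Benjamini-Hochberg over the 14185, threshold 0.05; R 4.3.3). Alternatives used limma 3.58.1 (voom), DESeq2 1.42.0, other scalings and filters, 2 groups only, left-out libraries and clones, and the clone as a block. The procedure was tested on simulated data. The clone letters pair the samples: residuals of the same clone correlated at 0.184 to 0.684 over 18 pairs and those of different clones at −0.568 to −0.024 over 36. Values in every library are given for the 3 members of each family with the highest mean CPM and the 12 called members with the smallest F-test p. Members called with the block alone and members not tested are named, as are up to 4 genes of each list by p. Lengths, shared runs and stem-loops come from GENCODE M21 and promoters from RefSeq. None of 11 listed RNAs that lack a poly(A) tail and are not histones matched a row of the table.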

Additional observations from a re-analysis of the deposited data

Results flagged for a closer look

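Between 2 and 4 h, 7 members had effects against untreated cells that differed between the times, by edgeR's test of 4 h against 2 h. Hist1h2bb differed by 0.53 on the log2 scale (adjusted p = 0.0247), with means of 78.1 and 113 CPM. Hist1h2bp differed by 0.89 on the log2 scale (adjusted p = 0.0185), with means of 10.4 and 19.4 CPM. Hist1h2bc differed by 0.94 on the log2 scale (adjusted p = 0.0151), with means of 21.6 and 41.5 CPM. Hist1h2bg differed by 0.85 on the log2 scale (adjusted p = 0.0425), with means of 22.8 and 41 CPM. Hist1h2bj differed by 0.82 on the log2 scale (adjusted p = 0.0323), with means of 24.3 and 42.9 CPM. Hist1h2ac differed by 0.77 on the log2 scale (adjusted p = 0.0374), with means of 10 and 17.1 CPM. Hist1h2af differed by 0.84 on the log2 scale (adjusted p = 0.0483), with means of 8.43 and 15.1 CPM. Both effects share the untreated libraries, which cancel in this difference.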

How the results depend on the processing

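The count of members called at 4 h was 47 with edgeR, 47 with the clone as a replicate block and 34 to 47 over the alternatives set at the start, 45 to 47 when 1 library was left out. With every library of 1 clone left out it was 46 (a), 42 (b) and 34 (c), the first made up of 44 higher and 2 lower. Of the 47 calls 44 held in all 12 fits that left out 1 library; Hist1h2an, Hist2h2ab and Hist2h3b did not. At 1 h the count was 0, with 11 under the replicate block and 3 with DESeq2. At 2 h it was 8, with 28 under the block, 25 with DESeq2, 1 with total counts, 1 with only the 2 groups, 0 to 22 without 1 library and 22 (a, of which 20 higher and 2 lower), 0 (b) and 0 (c) with 1 clone left out. Between 2 and 4 h it was 7, with 34 under the block, 20 with DESeq2, 0 with only the 2 groups, 0 to 28 without 1 library and 17 (a), 0 (b) and 0 (c) with 1 clone left out. Over all times it was 43, with 48 under the block, 35 to 44 without 1 library and 43 (a), 2 (b) and 0 (c) with 1 clone left out. Fits without a clone have fewer samples. Of all genes, DESeq2 called 0.649% at 1 h, 16.5% at 2 h and 7.09% between 2 and 4 h, in either direction. Without clone a, 12.6% were higher and 10.1% lower at 2 h, and 19% and 16.8% at 4 h. Between 2 and 4 h they were 5.1% and 3.31%. Over all times the block called 56.8%. Shares of the main fit and the other block shares are given above. Those of the remaining settings are not given, so their counts cannot be set against all genes. The H2B ratio of 4 h to untreated, 1.38, became 2.17 without Hist2h2bb. For the 24 members with values in every library and 23 settings, calls were lost in 64 of 552 values at 2 h and 3 at 4 h and gained in 9 at 1 h, 29 at 2 h and 2 at 4 h. These members include the 12 called ones with the smallest F-test p, a choice that favours calls that hold. No called change turned its sign, while differences under the threshold did in 15, 9 and 5 values, Hist1h2bb and Hist2h2bb with total counts at 1 and 2 h among them. With the block and without untreated clone a, a setting chosen after the data were seen, the calls were 5, 17 and 50 at 1, 2 and 4 h, 47 between 2 and 4 h, 1 between 1 and 2 h and 50 over all times. Of all genes, 11.4%, 47.1% and 56.1% were called in that setting at 1, 2 and 4 h. The shares were 29.6% between 2 and 4 h, 23.1% between 1 and 2 h and 63% over all times. The untreated level in that setting is that of clones b and c alone.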
